A study of Mus musculus with 6 samples.

Results

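The BCL2 family sets whether a cell survives or dies by the mitochondrial route. In this report it is followed through 9 genes chosen by name: the pro-survival genes Mcl1, Bcl2 and Bcl2l1, the pore-forming effector gene Bak1, and the BH3-only death genes Bcl2l11, Bid, Bad, Bbc3 and Pmaip1. Rows for all 9 were found by symbol among the 11779 genes of the count table. RNA-seq had been made from long-term hematopoietic stem cells, the rare marrow cells that renew the blood, sorted from female mice aged 8 weeks as Lin-Sca1+c-Kit+CD48-CD150+ cells. The HET group (3 libraries, numbered 1, 3 and 4) was of genotype c-Mycfl/+Mx1Cre, with 1 floxed Myc allele and the Mx1-Cre transgene, and the WT group (3 libraries, numbered likewise) was c-Mycfl/+, with the same floxed allele and no Cre. Cre was switched on with poly(I:C), injected 3 times at 6 mg/kg. Whether the WT mice were also injected is not stated in so many words. The Mx1 promoter answers interferon in many cell types, so Cre was not limited to stem cells. Whether a library came from 1 mouse or from pooled mice is not stated, so the p-values measure the spread between these libraries, which may be technical.

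Pro-survival BCL2 proteins hold the effectors BAK and BAX in check at the mitochondrial outer membrane. BH3-only proteins are switched on by stress, growth factor loss or DNA damage, and either occupy the pro-survival proteins or engage the effectors directly. Once BAK or BAX opens the membrane, cytochrome c escapes and caspases are activated. MCL1 is known to be needed for the survival of hematopoietic stem cells in mice, and c-MYC is known both to drive growth and to prime cells for this form of death.

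Total counts were between 4627452 and 9886223 in the HET libraries and between 4249490 and 5600856 in the WT libraries, with HET 1 the deepest. Levels are given as CPM, a gene's counts scaled to a common library size with TMM factors. Of 10869 genes tested with edgeR's quasi-likelihood test, 28 (0.258%) passed the threshold of 0.05 after Benjamini-Hochberg adjustment, 4 (0.0368%) with HET higher and 24 (0.221%) with HET lower. Myc itself measured 294, 387 and 372 CPM in HET 1, 3 and 4, against 447, 427 and 542 CPM in WT 1, 3 and 4, so every library labelled HET was below every WT library, as in 5.64% of all genes tested. The log2 difference of -0.43 ± 0.12 (SE) did not pass (edgeR adjusted p = 0.312). These are reads over the whole gene, so they include parts outside the floxed segment. Genes that mark the sorted cells were present, with Kit between 1145 and 1258 CPM in HET and between 1091 and 1229 CPM in WT. Of the 10 stem cell markers listed, 5 had positive and 5 negative log2 fold changes, and 0 passed by edgeR. Cd48, which the gate selects against, lay between 3.67 and 8.96 CPM in HET and between 1.67 and 3.25 CPM in WT. Every HET library was higher for Cd48, as in 4.69% of all genes tested. Of the markers of other blood cells that were listed, B lineage genes (4 of 7 measured) summed to between 20.1 and 21.4 CPM in HET and between 15.2 and 23.4 CPM in WT, and T and NK genes (2 of 8 measured) to between 18.5 and 29.6 CPM in HET and between 9.06 and 20.03 CPM in WT.

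Promoter windows from RefSeq (build GRCm38.p6, the assembly also called mm10), running from 250 bases before to 50 bases after an annotated start, were matched by symbol for 8 of the 9 members, all but Pmaip1. They are shown for Mcl1 and Bcl2, the members whose HET and WT libraries did not overlap, and for Bbc3, which holds the single E-box among the members' windows. Each is written 5′ to 3′ on the gene's own strand. Capitals mark the E-box CACGTG, the core sequence that MYC and MAX bind and which reads alike on both strands, and the sequence TGACG on either strand (CGTCA on the other), part of the element bound by CREB. The motifs do not overlap each other in these windows.
Mcl1, chr3:95658471-95658770, plus strand: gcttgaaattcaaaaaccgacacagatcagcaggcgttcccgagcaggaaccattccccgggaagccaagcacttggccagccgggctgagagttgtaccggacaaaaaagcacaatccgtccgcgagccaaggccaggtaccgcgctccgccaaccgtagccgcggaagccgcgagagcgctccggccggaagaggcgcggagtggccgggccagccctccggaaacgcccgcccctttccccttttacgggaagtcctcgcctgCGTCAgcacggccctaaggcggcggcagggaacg
Bcl2, chr1:106714241-106714540, minus strand: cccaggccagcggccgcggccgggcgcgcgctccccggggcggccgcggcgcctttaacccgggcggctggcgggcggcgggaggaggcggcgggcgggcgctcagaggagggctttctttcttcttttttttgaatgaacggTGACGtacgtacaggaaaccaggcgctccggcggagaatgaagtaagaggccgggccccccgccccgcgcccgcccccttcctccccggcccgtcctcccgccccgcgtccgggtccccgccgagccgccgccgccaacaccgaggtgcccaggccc
Bbc3, chr7:16310181-16310480, plus strand, the most downstream of 3 windows, partly overlapping the next: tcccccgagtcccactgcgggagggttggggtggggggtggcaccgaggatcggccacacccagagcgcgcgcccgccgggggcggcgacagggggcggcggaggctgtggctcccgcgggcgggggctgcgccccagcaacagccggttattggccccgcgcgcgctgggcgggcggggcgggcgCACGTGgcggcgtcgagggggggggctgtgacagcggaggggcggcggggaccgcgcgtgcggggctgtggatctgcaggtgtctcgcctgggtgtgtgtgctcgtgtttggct
CACGTG stood in 1 of the 8 members, Bbc3, at position -64 from the start, and in 8.09% of all genes with a window. Single windows held it in 7.15% of 32851 cases. TGACG stood in 3 of the 8 members, against 23% of all genes. It was at position 17 after the RefSeq start in Mcl1, at -107 in Bcl2 and at -55 in the most upstream window of Bbc3. Positions are counted from each window's RefSeq start, which can differ from the GENCODE gene limits given below. The whole Mcl1 window, which ends at 95658770, lies before the GENCODE start at 95658788. Among related genes outside the 9, CACGTG stood in Bax (at -9 and at 36), Bnip1 (at -41) and Bnip3 (at -108). The members' windows were rich in CpG dinucleotides, with between 1 and 44 per window, and 13 of the 14 exceeded the median of 7 over all windows. A match is a description of these letters and no evidence of binding.

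None of the 8 members that could be tested passed in HET against WT by edgeR (0 of 8, against 0.258% of all genes tested). DESeq2 and limma-voom also called 0. The HET and WT libraries did not overlap for 2 of the 8, Mcl1 and Bcl2, against 10.3% of all genes tested. An unadjusted p under 0.05 was reached by 1 member, Mcl1, and by 5.22% of all genes. Of the 8, 5 had positive and 3 negative log2 fold changes, with a median of 0.12, against a median of 0.00 over all genes tested. The 3 on the lower side were Mcl1, Bcl2l11 and Bbc3. The ninth, Pmaip1, had too few counts to pass the filter.

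**Figure D1:**
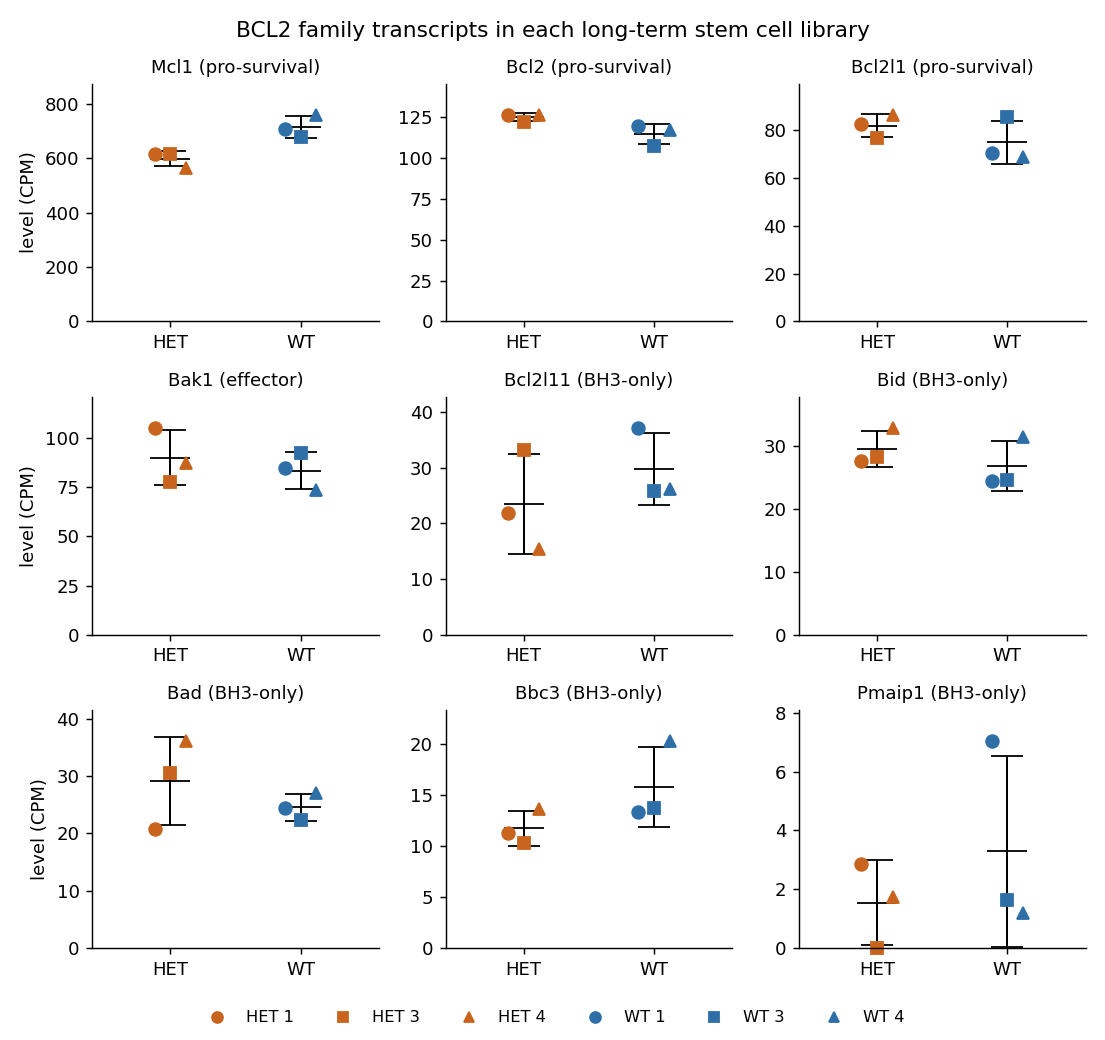
Levels of the 9 BCL2 family members in CPM (vertical axes, from 0) in each library, HET left and WT right; horizontal marks and bars are the mean and SD of 3 libraries, and symbols give the library number. All HET libraries lie below all WT libraries for Mcl1, and above them for Bcl2, while the groups overlap in the other panels.

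Mcl1 (ENSMUSG00000038612; GRCm38 chromosome 3, 95658788 to 95663176, plus strand) encodes a short-lived guardian that binds BAK and BIM. It measured 615, 615 and 566 CPM in HET 1, 3 and 4, against 707, 678 and 761 CPM in WT 1, 3 and 4. Every HET library was below every WT library, a separation seen in the lower direction in 5.64% of all genes tested. The means were 599 ± 28.5 CPM in HET and 715 ± 42.1 CPM in WT (SD, n = 3 each). In the edgeR fit the HET level was 83.7% of that in WT, with a 95% interval from 72.6% to 96.5%. On the log2 scale this is -0.26 ± 0.10 (SE), with an unadjusted p of 0.0165 and an adjusted p of 0.743. The difference thus did not pass over all genes. Permuting the 6 libraries exactly gave a two-sided p of 0.1, and no smaller value is possible with 3 in each group. The unadjusted p was 0.0900 without HET 4 and 0.0927 without WT 4, the libraries with the lowest and the highest level.

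Bcl2 (ENSMUSG00000057329; chromosome 1, 106538178 to 106714274, minus strand) encodes the founding pro-survival protein of the family. Its levels were 126, 122 and 126 CPM in HET 1, 3 and 4, against 119, 107 and 117 CPM in WT 1, 3 and 4. All HET libraries lay above all WT libraries, as was the case in the higher direction for 4.69% of all genes tested, but the gap was small. HET stood at 109% of WT (95% interval 90.5% to 131%; edgeR log2 fold change 0.12 ± 0.13 SE, adjusted p = 0.995). It was 0.08 without WT 3. Of its 9157 exonic bases, 558 are shared with D630008O14Rik on the opposite strand. Since the sources used here do not say whether strand was used in counting, reads from such pairs cannot be told apart.

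Bcl2l1 (chromosome 2, 152780668 to 152831728, minus strand) encodes BCL-XL, the guardian of platelets and maturing red cells. It measured 82.6, 76.8 and 86.5 CPM in HET 1, 3 and 4, against 70.5, 85.4 and 68.7 CPM in WT 1, 3 and 4. The groups overlapped through WT 3, and the log2 fold change was 0.13 ± 0.16 (SE, edgeR adjusted p = 0.995), with a 95% interval of 87.2% to 137% of WT. It was 0.24 without WT 3, 0.09 without WT 1 and 0.07 without WT 4. The 8 megakaryocyte markers are genes of a lineage in which BCL-XL is known to act. They summed to between 1061 and 1358 CPM in HET and between 915 and 961 CPM in WT. All 8 had positive fold changes, against 5513 of the 10869 genes tested, with 0 called by edgeR over all genes. At an unadjusted p under 0.05 there was 1, Itga2b (edgeR log2 difference 0.60 ± 0.14 SE, adjusted p = 0.132). Itga2b passed by DESeq2, with the library number as a block and without HET 3. The part of the megakaryocyte markers in the level of Bcl2l1 was not tested. In bulk RNA, fewer cells of a type and less RNA per cell cannot be told apart.

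Bak1 (chromosome 17, 27019810 to 27029009, minus strand) encodes BAK, which forms the pore in the outer membrane. It measured 105, 77.4 and 87.3 CPM in HET 1, 3 and 4, against 84.6, 92.2 and 73.5 CPM in WT 1, 3 and 4. The highest library was HET 1, and the other 2 HET libraries lay within the range of WT. The log2 fold change was 0.11 ± 0.16 (SE, edgeR adjusted p = 0.995), and it was -0.020 without HET 1, 0.21 without HET 3, 0.19 without WT 3 and 0.03 without WT 4. Exons of Bak1 share 614 of 2407 bases with Ggnbp1 on the opposite strand.

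**Figure D2:**
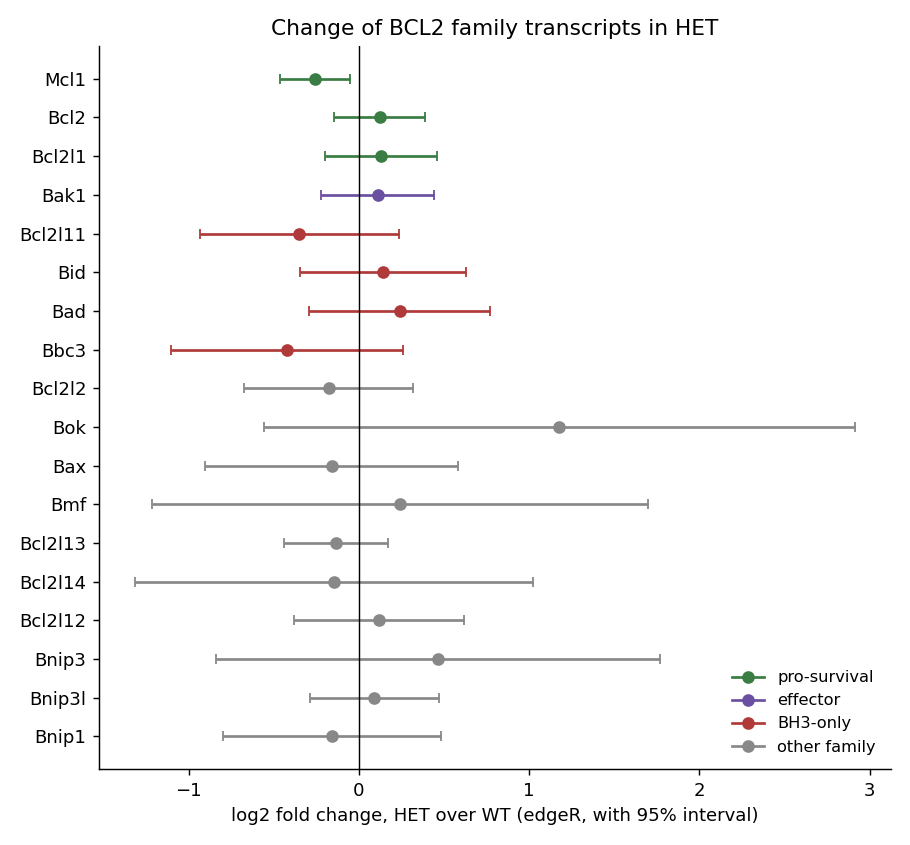
Log2 fold changes of HET over WT (horizontal axis) with 95% intervals from the edgeR fit for the 8 tested members, coloured by role, and 10 other BCL2 family genes in grey. The interval of Mcl1 lies below 0 without adjustment for the number of genes, and those of the other 17 genes include 0.

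The BH3-only genes were less abundant than the pro-survival genes, and the tested ones were more variable by edgeR's estimate of replicate spread. Bcl2l11 (chromosome 2, 128126038 to 128162547, plus strand) encodes BIM, which acts on growth factor withdrawal and binds all pro-survival proteins. It measured 21.8, 33.1 and 15.4 CPM in HET 1, 3 and 4, against 37.2, 25.8 and 26.2 CPM in WT 1, 3 and 4. HET 1 and HET 4 were below all WT libraries, while HET 3 exceeded WT 3 and WT 4. The log2 fold change was -0.35 ± 0.28 (SE, edgeR adjusted p = 0.995), and leaving out 1 library at a time moved it from -0.66 without HET 3 to -0.12 without HET 4. It was -0.16 without WT 1.

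Bbc3 (chromosome 7, 16308393 to 16318205, plus strand) encodes PUMA, a classic product of p53 activation, and its E-box window is printed above. It measured 11.3, 10.2 and 13.6 CPM in HET 1, 3 and 4, against 13.4, 13.7 and 20.3 CPM in WT 1, 3 and 4. HET 4 exceeded WT 1, and the other HET libraries were below all of WT. The log2 difference of -0.42 ± 0.33 (SE) was the farthest from 0 among the tested members, with an edgeR adjusted p of 0.995 and a 95% interval of 46.6% to 119.6% of WT. It was -0.20 without WT 4, the highest library. The biological coefficient of variation, the replicate spread left after counting noise, was estimated by edgeR at 26.2% for Bbc3, the highest of the 8. It was 12.6% for Mcl1. This estimate is drawn towards that of genes at a similar level, and Bbc3 had the lowest CPM of the 8. Relative to its mean, Bcl2l11 spread more than Bbc3 in HET (SD 8.99 on 23.5 CPM, against 1.73 on 11.7). In WT the reverse held (6.44 on 29.7 CPM for Bcl2l11, against 3.89 on 15.8 for Bbc3).

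Pmaip1 (chromosome 18, 66458533 to 66465565, plus strand) encodes NOXA, which binds MCL1 and promotes its destruction. It had 29, 0 and 9 counts in HET 1, 3 and 4, against 39, 9 and 5 counts in WT 1, 3 and 4. These are 2.88, 0 and 1.75 CPM in HET, where the 0 in HET 3 allows up to 0.654 CPM, and 7.04, 1.65 and 1.19 CPM in WT. WT 1 held 39 of the 53 WT counts. The pooled HET level was 55.1% of WT (exact 95% interval 35.3% to 85.1%, which covers counting error only), or -0.86 on the log2 scale. It was 0.40 without WT 1, so its direction rested on that library. With no filter on low counts, edgeR gave a log2 difference of -1.02 ± 0.99 (SE, adjusted p = 0.998).

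Bid (chromosome 6, 120891930 to 120916853, minus strand) encodes the link from death receptors to mitochondria, cut into its active form by caspase-8. It measured 27.7, 28.4 and 32.9 CPM in HET 1, 3 and 4, against 24.5, 24.7 and 31.5 CPM in WT 1, 3 and 4. Only WT 4 overlapped the HET range, and the log2 fold change was 0.14 ± 0.23 (SE, edgeR adjusted p = 0.995). It was 0.07 without HET 4, 0.08 without WT 1, 0.08 without WT 3 and 0.27 without WT 4. Bid shares 628 of its 3550 exonic bases with Bcl2l13 on the opposite strand. Bcl2l13, itself a BCL2-like gene of the outer membrane, measured 100, 77.9 and 87.5 CPM in HET 1, 3 and 4, against 97.6, 92.8 and 102 CPM in WT 1, 3 and 4.

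Bad (chromosome 19, 6941861 to 6951899, plus strand) encodes a protein that survival signals through AKT keep phosphorylated and inactive. It measured 20.8, 30.5 and 36.1 CPM in HET 1, 3 and 4, against 24.4, 22.3 and 26.9 CPM in WT 1, 3 and 4. HET 1 was below every WT library and HET 3 and HET 4 were above them, so the HET libraries disagreed in direction. The log2 fold change was 0.24 ± 0.26 (SE, edgeR adjusted p = 0.995). It was 0.44 without HET 1 and 0.06 without HET 4. Bad shares 524 of 2558 exonic bases with Gpr137 on the opposite strand.

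Levels of different genes were compared per kilobase of exon (CPM divided by the union of annotated exons, GENCODE M21). Mcl1 stood at 175 ± 8.34 CPM per kilobase in HET and 209 ± 12.3 in WT (SD, n = 3 each), at percentile 98.9 of all genes of the table in HET and 99.1 in WT. Bak1 followed at 37.4 ± 5.84 CPM per kilobase in HET and 34.7 ± 3.92 in WT. Bcl2l1 had 17.9 ± 1.07 CPM per kilobase in HET and 16.3 ± 2.002 in WT. Bcl2 had 13.6 ± 0.264 CPM per kilobase in HET and 12.5 ± 0.685 in WT. Mcl1 and Bak1 were thus each separated from the next member by more than the spread of the libraries, in both groups. Bcl2l1 and Bcl2 did not overlap in level in either group. The order rests on the exon lengths used, which the spread of the libraries does not cover. In CPM without length, Bcl2 (125 in HET and 114.5 in WT) exceeded Bak1 (90.0 in HET and 83.4 in WT).

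The BH3-only levels lay lower and closer together. Bad had 11.4 ± 3.01 CPM per kilobase in HET and 9.59 ± 0.907 in WT (SD, n = 3 each), Bid 8.35 ± 0.806 and 7.58 ± 1.12, and Bbc3 5.52 ± 0.817 and 7.43 ± 1.83. Bcl2l11 had 2.92 ± 1.12 CPM per kilobase in HET and 3.70 ± 0.802 in WT, and Pmaip1 0.565 ± 0.531 in HET and 1.20 ± 1.19 in WT. From Bcl2 downwards, neighbours in this order overlapped in at least 1 of the groups, with 2 exceptions: Bcl2l11 lay below Bbc3, and Pmaip1 below Bcl2l11, in every library compared within HET and within WT.

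**Figure D3:**
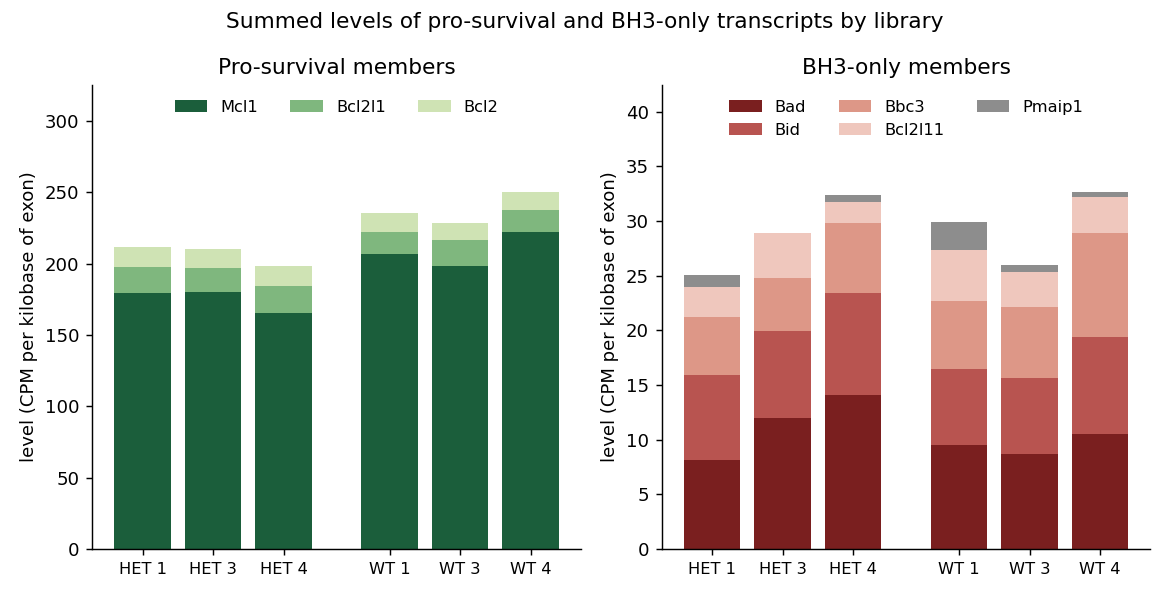
Levels per kilobase of exon (vertical axes, CPM per kilobase) stacked for the 3 pro-survival members (left panel) and the 5 BH3-only members (right panel) in the HET and then the WT libraries. The pro-survival sum lies between 198 and 212 in HET and between 229 and 250 in WT, mostly Mcl1, while the BH3-only sums overlap.

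Within the pro-survival trio, Mcl1 held 85.0%, 85.7% and 83.5% of the summed level in HET 1, 3 and 4, against 87.9%, 86.7% and 88.9% in WT 1, 3 and 4. The share was lower in all HET libraries than in any WT library. Bcl2 held 6.496%, 6.34% and 6.96% in HET 1, 3 and 4, against 5.53%, 5.13% and 5.10% in WT 1, 3 and 4, with all HET libraries higher. The share of Bcl2l1 was 8.67% ± 0.788 in HET and 6.89% ± 1.13 in WT (SD, n = 3 each), with overlap. The summed level was 212, 210 and 198 CPM per kilobase in HET 1, 3 and 4, against 235, 229 and 250 in WT 1, 3 and 4. These sums and shares rest on chosen members and were not tested.

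A ratio of 2 transcripts within a library is free of library scaling. The log2 ratio of Mcl1 over Bcl2, a pair chosen after their values were seen, was 3.71, 3.76 and 3.59 in HET 1, 3 and 4, against 3.99, 4.08 and 4.12 in WT 1, 3 and 4. It was lower in all HET libraries, with a mean difference of -0.38, and as the pair was chosen for its separation it carries no test. Of all 12 ratios of a pro-survival member to a tested BH3-only member, 9 overlapped between the groups and 3 did not, with no test made. Single genes separated in 10.3% of all genes tested, and no such share was computed for ratios. The 12 ratios share members, so they are not independent of each other. Mcl1 over Bid was lower in all HET libraries, at 4.53, 4.49 and 4.16 in HET 1, 3 and 4, against 4.90, 4.83 and 4.65 in WT 1, 3 and 4. Bcl2 over Bbc3 was higher in all HET libraries, at 1.37, 1.46 and 1.102 in HET 1, 3 and 4, against 1.05, 0.86 and 0.42 in WT 1, 3 and 4. So was Bcl2l1 over Bbc3, at 1.76, 1.79 and 1.55 in HET 1, 3 and 4, against 1.29, 1.53 and 0.65 in WT 1, 3 and 4. The 3 separations thus did not run in a single direction. Among the overlapping ratios, Mcl1 over Bcl2l11 averaged 5.98 ± 0.50 in HET and 5.84 ± 0.32 in WT (log2 ratio per kilobase, SD, n = 3 each). Bcl2 over Bcl2l11 averaged 2.29 ± 0.58 in HET and 1.78 ± 0.25 in WT, and Bcl2l1 over Bad 0.68 ± 0.40 in HET and 0.76 ± 0.30 in WT. The 3 pro-survival members over the 5 BH3-only members, each summed, gave 3.08, 2.86 and 2.61 in HET 1, 3 and 4, against 2.98, 3.14 and 2.94 in WT 1, 3 and 4. The lowest of these was HET 4 and the highest WT 3, and HET 1 lay within the WT range.

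**Figure D4:**
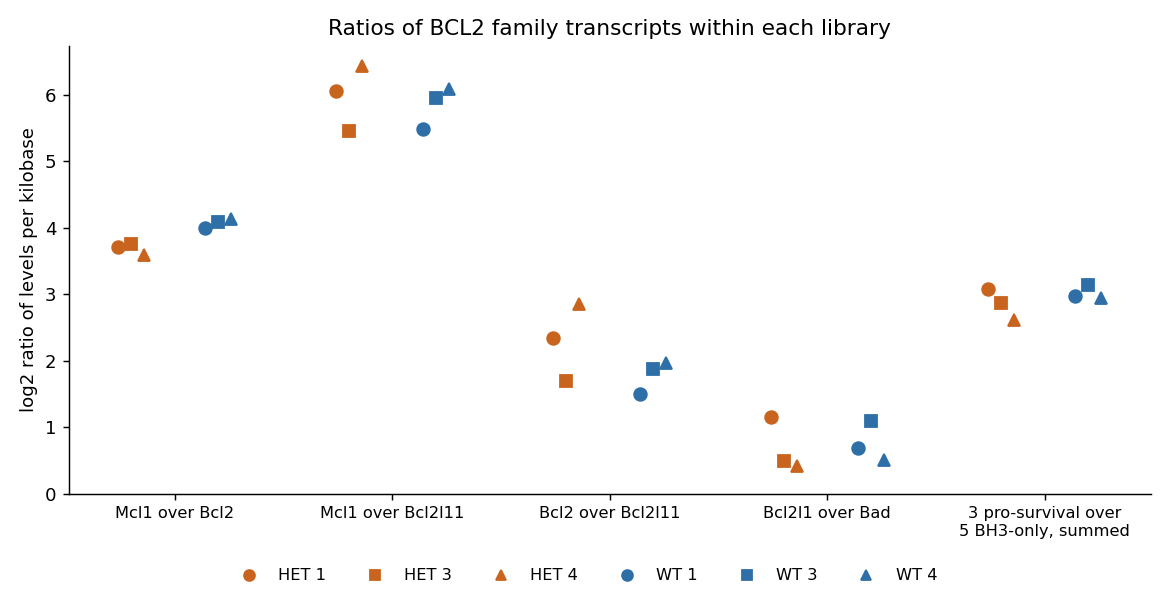
Log2 ratios of levels per kilobase (vertical axis) within each library for 4 pairs of members and for the summed pro-survival over summed BH3-only members, HET left of WT in each pair. Mcl1 over Bcl2 lies between 3.59 and 3.76 in HET and between 3.99 and 4.12 in WT, and the groups overlap in the other 4 ratios plotted.

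Beyond the 9 members, 10 of 19 other listed BCL2 family genes were measured, and the other 9 were not analysed here. By edgeR 0 of the 10 passed, at an unadjusted p under 0.05 also 0, and 5 had positive and 5 negative log2 fold changes, with a median of -0.02. Bcl2l2, which encodes the pro-survival protein BCL-W, measured 21.7, 25.7 and 24.7 CPM in HET 1, 3 and 4, against 26.7, 26.0 and 28.9 CPM in WT 1, 3 and 4. Its groups did not overlap, as in the lower direction for 5.64% of all genes tested. The log2 fold change of Bcl2l2 was -0.18 ± 0.24 (SE, edgeR adjusted p = 0.995). Bax, the partner effector of BAK, measured 11.9 ± 3.32 CPM in HET and 13.2 ± 3.87 CPM in WT (SD, n = 3 each), well under Bak1. Bok, a further effector-type gene, had 3.34 ± 1.35 CPM in HET and 1.42 ± 1.503 CPM in WT. Bmf, a BH3-only gene, averaged 3.88 ± 2.48 CPM in HET and 3.18 ± 1.41 CPM in WT. The mitophagy receptor gene Bnip3l had 52.9 ± 4.95 CPM in HET and 49.8 ± 4.12 CPM in WT, and its relative Bnip3 had a log2 difference of 0.46 ± 0.63 (SE). The remaining 3, Bcl2l12, Bcl2l14 and Bnip1, lay at 0.12, -0.15 and -0.16 on the log2 scale.

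The pathway around the family was followed through 10 lists of 119 genes in all, the other family genes included, of which 99 were tested and 20 were not analysed here. By edgeR 0 of the 99 passed over all genes, against 0.258% of all genes tested. An unadjusted p under 0.05 was reached by 5, where 5.22% of all genes reached it, and the median log2 fold change was 0.02, against 0.00 over all genes. DESeq2 and the fit with the library number as a block each called 1 of them, Pim3. All HET libraries lay below all WT libraries in 9 of the 99, against 5.64% of all genes tested. They lay above in 3, against 4.69%. Separations given below for single genes are to be read beside these shares.

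Downstream of the mitochondria, the 18 tested genes of the apoptosome, caspases and IAPs (inhibitors of apoptosis) had 9 positive and 9 negative values and a median of 0.01. Cycs, which encodes cytochrome c, measured 18.2, 17.4 and 14.2 CPM in HET 1, 3 and 4, against 11.0, 10.4 and 13.8 CPM in WT 1, 3 and 4. All HET libraries were above WT (log2 fold change 0.50 ± 0.31 SE, edgeR adjusted p = 0.994). Diablo, which encodes the IAP antagonist SMAC, measured 53.0 ± 10.7 CPM in HET and 65.0 ± 3.56 CPM in WT (SD, n = 3 each), with all HET libraries below WT and an edgeR adjusted p of 0.995. Endog, a mitochondrial nuclease gene, had 2.84 ± 0.295 CPM in HET and 4.95 ± 1.49 CPM in WT. In the 13 tested outer membrane partners of BAX and BAK the median was -0.02. Vdac1 lay at -0.18 on the log2 scale. Vdac2, whose protein holds BAK at the membrane, measured 93.8 ± 9.32 CPM in HET and 106 ± 16.6 CPM in WT. Fis1, a fission adaptor gene, had 70.0 ± 2.24 CPM in HET and 78.9 ± 4.64 CPM in WT.

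On the death receptor side, 10 genes were tested, with a median of 0.06. Tnfrsf10b, the receptor for the death ligand TRAIL in mice, measured 10.8, 17.2 and 10.5 CPM in HET 1, 3 and 4, against 29.8, 19.2 and 31.2 CPM in WT 1, 3 and 4. Every HET library was below every WT library, with a log2 difference of -1.06 ± 0.30 (SE), an edgeR unadjusted p of 0.00214 and an adjusted p of 0.297, so it did not pass. Tnfrsf1a, a TNF receptor gene, averaged 137 ± 21.5 CPM in HET and 112 ± 4.42 CPM in WT (SD, n = 3 each). Faim, a gene that antagonises death receptor signalling, lay at 0.31 on the log2 scale. Casp8, whose protein cuts BID, had a log2 difference of 0.01 ± 0.13 (SE).

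Among 12 tested transcription factor and regulator genes upstream of BH3-only genes the median was -0.05. Atf4, which drives the stress response that induces several BH3-only genes, measured 401, 389 and 334 CPM in HET 1, 3 and 4, against 381, 602 and 564 CPM in WT 1, 3 and 4. HET 1 and HET 3 exceeded WT 1, and the log2 fold change was -0.46 ± 0.15 (SE, edgeR unadjusted p = 0.00624, adjusted p = 0.514). Atf4 passed in the edgeR fit without WT 1. Foxo1, a factor known to induce Bcl2l11, measured 36.7 ± 10.02 CPM in HET and 48.8 ± 5.63 CPM in WT (SD, n = 3 each). Runx3 lay at 0.33 on the log2 scale. Trp53, which encodes p53, the activator of Bbc3 and Pmaip1, had a log2 difference of 0.03 ± 0.12 (SE).

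The 16 tested genes for turnover and tethering of MCL1 and BIM protein had a median of 0.05. Of the 16, 13 had positive values, against 5513 of the 10869 genes tested, and 0 passed by edgeR. Btrc, a ubiquitin ligase subunit gene, measured 58.1, 69.3 and 64.9 CPM in HET 1, 3 and 4, against 45.1, 36.4 and 53.4 CPM in WT 1, 3 and 4. Its groups did not overlap (log2 fold change 0.51 ± 0.19 SE, edgeR adjusted p = 0.717). Fbxw7, a subunit of a ligase for MCL1, had 62.0 ± 3.12 CPM in HET and 77.3 ± 10.4 CPM in WT (SD, n = 3 each), also without overlap and in the lower direction. Ppp3ca, a calcineurin subunit gene, lay at 0.30 on the log2 scale. Huwe1, another ligase gene for MCL1, had a log2 difference of 0.02 ± 0.09 (SE).

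Of 20 tested survival receptor and signal genes, with a median of -0.0020, Pim3 had the smallest p. It encodes a kinase of the PIM family, which phosphorylates BAD. Pim3 measured 27.9, 27.3 and 36.4 CPM in HET 1, 3 and 4, against 52.3, 55.3 and 63.9 CPM in WT 1, 3 and 4. No HET library reached the WT range, with a log2 difference of -0.91 ± 0.20 (SE). The edgeR adjusted p was 0.0692, short of the threshold. It passed by DESeq2 and with the library number as a block. Bcl3 averaged 28.9 ± 9.99 CPM in HET and 20.3 ± 3.43 CPM in WT (SD, n = 3 each), and Il3ra, an interleukin-3 receptor gene, 25.3 ± 10.5 CPM in HET and 35.7 ± 3.32 CPM in WT.

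Mcl1 is known to be induced quickly by growth and stress signals, so the immediate early genes, a class that responds fast to the same signals, were listed too. Of 24 tested, 4 fell and 0 rose by edgeR over all genes, against 0.221% of all genes lower and 0.0368% higher. The list was chosen with earlier results of these data known, so this contrast is a description and carries no test. The list's median log2 difference was -0.65, against 0.00 over all genes. The 4 were Btg2 (-1.28 on the log2 scale), Junb (-1.04), Maff (-1.20) and Fosl2 (-1.57). The summed level of the 24 genes was between 6518 and 9720 CPM in HET and between 8276 and 11101 CPM in WT, with overlap. The part of this sum in the level of Mcl1 was not tested. Neutrophil and monocyte markers, a list of 14 genes such as Mpo and S100a8 that also holds Cd48, were summed. The sum was between 367 and 641 CPM in HET and between 285 and 845 CPM in WT. Of the 14, 3 had positive and 11 negative log2 fold changes, with 0 called by edgeR. An unadjusted p under 0.05 was reached by 2, Prtn3 (-0.44 on the log2 scale) and Cd48 (1.41).

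**Figure D5:**
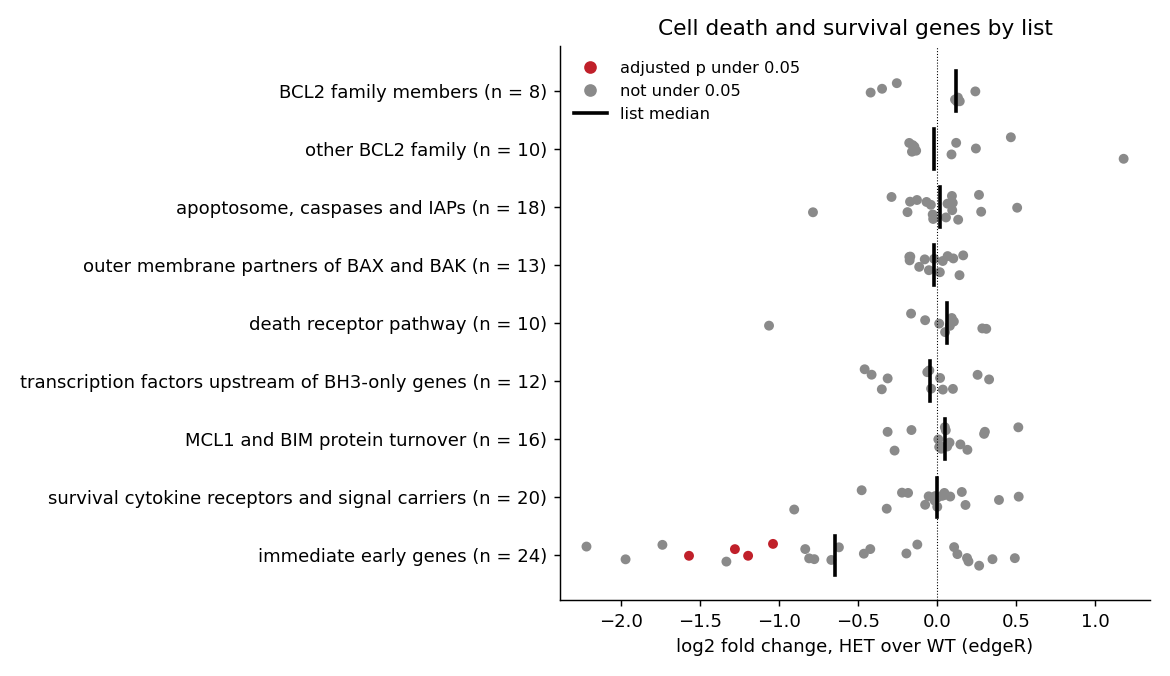
Log2 fold changes of HET over WT (horizontal axis) for each tested gene of the BCL2 family and 7 related lists and of the immediate early genes, with list medians as black bars and genes passing an adjusted p of 0.05 in red. Red points appear in the immediate early list alone, where 4 genes fell, and the medians of the other lists lie between -0.05 and 0.12.

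The genes whose pattern over the 6 libraries was most like that of Mcl1, the member of smallest p, were sought among 10157 genes by Pearson's correlation of log2 CPM. They were Trmt61a (r = 0.987), a tRNA methyltransferase gene, Eif4a1 (0.985), which encodes a translation initiation helicase, Zc3h12a (0.984), an RNase gene, Ssr4 (0.983), of the endoplasmic reticulum translocon, and Ccdc18 (0.983). All 5 had HET libraries below all WT libraries, and none passed by edgeR. Zc3h12a measured 50.8 ± 4.73 CPM in HET and 80.1 ± 14.6 CPM in WT (SD, n = 3 each), with an adjusted p of 0.245. Eif4a1 measured 217 ± 9.24 CPM in HET and 252 ± 9.30 CPM in WT. These correlations describe 6 libraries that also share the group difference and the scaling, and they were picked as the highest of many.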

How the data were processed

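The deposited values are counts, 1 whole number for each gene and each of 6 libraries, with library totals that differ as raw counts do. FastQC, STAR 2.5.2b, edgeR, limma and mm10 are named in the submitters' processing notes, with no role or order. Which program counted the reads, on which annotation and strand, and with which library kit is not known here, since the labels' protocols describe another study. No gene of the table was below 1.01 CPM in its second-highest library. Groups follow the genotype label, and library numbers follow the titles, which call HET libraries knockouts.

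Counts were fitted with edgeR 4.0.16 in R 4.3.3 (filterByExpr, which removed 910 genes, TMM scaling, robust quasi-likelihood F test, two-sided, group as the single term, Benjamini-Hochberg adjustment over all 10869 genes tested). Standard errors and 95% intervals come from the F statistic. The script was tested on simulated data. Whether the same library number pairs the samples is not known here, so the number was left out of the main fit. No 2 libraries agreed within counting noise. Named genes were Myc, all members, the other measured family genes and the 5 genes nearest to the member of smallest p. From each other list but the marker lists, those past the threshold and up to 3 of smallest p were named. Marker lists are given as sums or counts, with Cd48, Prtn3, Itga2b, Mpo and S100a8 named. Members and lists were chosen with earlier results of these data known. Genes given beyond this rule (Casp8, Trp53, Huwe1, Kit) were chosen after their values were seen. Alternatives were RLE scaling, other filters, DESeq2 1.42.0, limma-voom 3.58.1, a replicate block, a threshold of 0.1, each library left out in turn and, chosen after seeing the data, HET 1 thinned to the mean depth of the others. All 12 ratios of a pro-survival to a tested BH3-only member were computed after values were seen, apart from the 3 chosen earlier. Positions and exon lengths are from GENCODE M21 on GRCm38, and promoter sequences from RefSeq.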

Additional observations from a re-analysis of the deposited data

How the results depend on the processing

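The number of members called was 0 by edgeR as reported and 0 under each of the 14 alternatives. Adjusted p-values of Mcl1 ran from 0.370 to 0.9998 over them, and its log2 fold change from -0.29 to -0.21. Over all genes the count of called genes was 28, against 59 by DESeq2 and 49 with the library number as a replicate block, and it ran from 10 (without HET 4) through 11 (without WT 1) to 68 (without HET 1) when 1 library was left out. Among all listed genes 4 were called, against 7 by DESeq2 and 7 with the block, and from 3 to 8 when 1 library was left out. The deviations of same-numbered libraries from their group means correlated at 0.11, -0.04 and 0.07. Those of differently numbered libraries correlated at between -0.17 and 0.11. With 3 libraries a group, these values cannot decide whether the shared numbers mark a pairing. Log2 fold changes kept their sign in 13 of 13 alternative fits for 7 of the 8 tested members, and in 12 of 13 for Bak1, which ran from -0.020 (without HET 1) to 0.21 over the fits leaving out 1 library. The pooled log2 ratio of Pmaip1 ran from -1.91 to 0.40 in those fits. The cause of these shifts was not tested. With 3 libraries a group, the edgeR intervals of the less abundant members differed from gene to gene. They ran from 52.3% to 117.7% of WT for Bcl2l11 and from 78.8% to 154.5% for Bid. For Bad the interval was 81.7% to 170.8% of WT, and for Bbc3 it was 46.6% to 119.6%. A difference inside a gene's own interval is not settled for that gene by these libraries.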

Other observations

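The makeup of the BH3-only group differed between libraries. Per kilobase, Bad held 32.5%, 41.3% and 43.6% of the summed BH3-only level in HET 1, 3 and 4, against 31.8%, 33.6% and 32.3% in WT 1, 3 and 4. Bid held 31.1%, 27.7% and 28.7% in HET, above all WT libraries at 23.1%, 26.8% and 27.2%. Bbc3 held 21.3%, 16.7% and 19.9% in HET, against 21.01%, 24.9% and 29.2% in WT. These shares sum to a fixed total, so a higher share of 1 gene lowers the others. Mcl1 over Bbc3, as a log2 ratio per kilobase chosen after values were seen, averaged 4.996 ± 0.276 in HET and 4.84 ± 0.26 in WT (SD, n = 3 each), with overlap. Erythroid markers, in whose lineage BCL-XL is also known to act, summed to between 99.6 and 140 CPM in HET and between 90.1 and 125 CPM in WT.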
